A study of Mus musculus with 18 samples.

Results

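The outer segment is the light-sensing compartment of rods and cones, and its shape depends on a set of structural proteins. Here, the RNA of 10 genes for such proteins was followed in mouse retina: Prph2, Rom1, Abca4, Prom1, Cdhr1, Rp1, Rp1l1, Tulp1, Fscn2 and Impg2. They were chosen by symbol, as genes known for the structure of discs, axoneme and surroundings of the outer segment, out of 23420 gene symbols in the count tables. All 10 were found and all 10 passed the filter on low counts. Retinal RNA came from 9 wild-type BALB/cJ mice, an albino strain, taken as young adults. The naïve group of 3 mice is labelled as without light and without treatment. In the vehicle group, 3 mice were exposed to white light of 15000 lux for 1 h and injected daily with the solvent DMSO, and in the TD139 group, 3 mice received the same light and daily TD139 at 15 mg/kg in DMSO, with injections beginning the day before light. Retinas of both light-exposed groups were taken 4 days after light. TD139 is an inhibitor of galectin-3, a sugar-binding protein of reactive microglia, and the comparisons ask how light and TD139 relate to the RNA levels. All 3 groups share strain and genotype, and as no group was given DMSO or TD139 without light, light and treatment cannot be told apart in the comparisons with naïve mice.

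An outer segment is a modified cilium filled with a stack of membrane discs. New discs form at its base as folds of the plasma membrane, are flattened and closed, and move outward until the pigment epithelium takes up the oldest ones at the tip, so structural proteins are made throughout life. The hairpin rims of the discs are built by tetraspanins, the growing folds are shaped by prominin-1 and a photoreceptor cadherin, and the stack is aligned along a microtubule axoneme.

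After light and vehicle the RNA of all 10 genes was lower in the mean than in naïve retina, by 24.8 to 44.5%, and 5 of them passed the test, where 2.89% of all tested genes were called lower. All 5 remained after a correction for transcript length and GC content, where 13.6% of all genes were called lower. When scaled to rod marker counts 0 remained, where 0.0592% of all genes were called lower. With TD139 all 10 had higher means than with vehicle, and 6 passed the test, where 17.2% of all tested genes were called higher. Of these 6 calls, 3 (Rp1, Rp1l1 and Cdhr1) remained after that correction, where 13.8% of all genes were called higher. With that scaling 2 (Rp1 and Rp1l1) remained, where 2.28% of all genes were called higher. The axoneme genes Rp1 and Rp1l1 were at 2.57 and 2.24 times the vehicle level. None of the 10 passed the test between TD139 and naïve mice, where 2.38% of all tested genes were called lower and 2.72% higher. The median of rod marker genes had the same sign in both comparisons, and the size of the TD139 difference among the 10 genes ran with transcript length. Both are described below.

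The mice had between 26171887 and 30201517 reads counted on genes, and the smallest count of any of the 10 genes in a mouse was 3690, for Fscn2, where counting error alone is 1.65%. The spread between mice therefore sets the precision. The tissue was checked by marker genes. The 14 rod markers summed to between 49575.8 and 98593 CPM (counts scaled to a common library size with edgeR's TMM factors) in the 9 mice. Lens markers summed to 8125 CPM in vehicle mouse 2 and to between 0.487 and 351 CPM in the other mice, and the results with and without that mouse are given. In bulk RNA, fewer cells of a type and less RNA per cell cannot be told apart.

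The upstream sequences of a few members are shown since photoreceptor genes share homeodomain sites read by factors such as CRX and OTX2. RefSeq promoter windows (250 bases before to 50 after a start, GRCm38.p6) were found for 8 of the 10 genes, with 2 windows for Prom1. For Rp1 and Rp1l1 none is shown. The 5-letter core TAATC, or GATTA on the other strand, occurred in 5 of these 9 windows (1 each for Prph2, Prom1, Abca4, Tulp1 and Impg2), against 22% of 32851 promoter windows. The longer CRX core TAATCC, which contains the 5-letter core, occurred in 1 window, that of Abca4, against 7.06% of windows. The site TGCTGA of the rod factor NRL, searched on both strands, occurred in 0 of the 9, against 19.5% of windows. The 100 bases before the start are printed for both rim genes, for Abca4 and for Impg2, with each core in capitals, at chr17:46910378-46910477 on the plus strand, chr19:8929357-8929456 on the minus strand, chr3:122044360-122044459 on the plus strand and chr16:56204213-56204312 on the plus strand.
Prph2: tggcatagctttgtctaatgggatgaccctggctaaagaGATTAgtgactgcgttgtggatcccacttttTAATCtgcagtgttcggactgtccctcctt
Rom1: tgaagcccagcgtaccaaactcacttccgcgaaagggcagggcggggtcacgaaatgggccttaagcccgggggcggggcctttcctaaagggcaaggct
Abca4: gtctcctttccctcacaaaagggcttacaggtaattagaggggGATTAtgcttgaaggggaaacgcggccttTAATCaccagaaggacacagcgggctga
Impg2: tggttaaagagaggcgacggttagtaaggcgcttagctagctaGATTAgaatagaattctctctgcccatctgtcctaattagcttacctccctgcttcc
Abca4 and Prph2 each held a sense core at about the same distance from the start, from base -28 to -24 and from base -30 to -26, and a reverse core further out, from -57 to -53 and from -61 to -57. Impg2 held a reverse core from -57 to -53, while Rom1, expressed at nearly the level of Prph2, held none. These matches are a description of letters, and binding was not measured.

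In naïve retina the 10 genes spanned a wide range of levels. Between genes, levels are given as CPM per kilobase of the longest coding transcript. Prph2, at 2757 ± 271 (SD, n = 3), and Rom1, at 2647 ± 399, were the highest and overlapped. Tulp1 followed at 1079 ± 192, then Cdhr1 at 278 ± 24.9, Prom1 at 229 ± 10.03 and Abca4 at 196 ± 18.9, with no overlap between neighbours from Rom1 to Abca4. Rp1 at 165 ± 37.0, Fscn2 at 108 ± 27.2 and Rp1l1 at 100.5 ± 21.4 overlapped with their neighbours in this order, Abca4 included. Impg2 was lowest at 33.5 ± 5.64, below every other member in each naïve mouse.

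**Figure D1:**
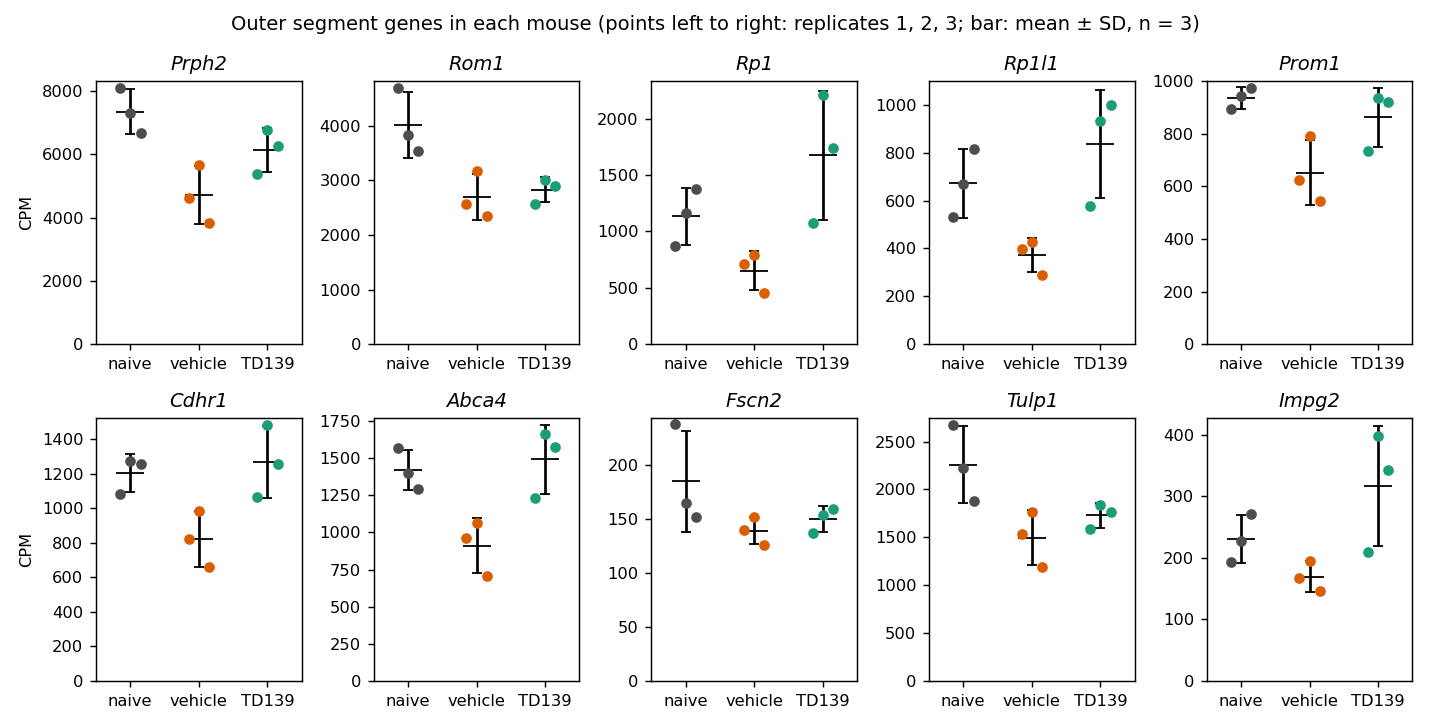
Level of each of the 10 genes in CPM (vertical axes, each from 0) in naïve, vehicle and TD139 mice, with 1 point per mouse and the mean ± SD. Vehicle points lie below all naïve points for every gene except Impg2, and TD139 points lie above all vehicle points for Rp1, Rp1l1, Cdhr1, Abca4 and Impg2.

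Prph2 (chromosome 17, 46910459 to 46924933, plus strand, GRCm38, 3 exons) encodes peripherin-2, the tetraspanin that bends the membrane at the disc rim. Its level was 8096, 7289 and 6655 CPM in naïve mice, 4615, 5656 and 3832 CPM in vehicle mice, and 5389, 6753 and 6272 CPM in TD139 mice. All vehicle mice lay below all naïve mice, and TD139 mice lay between and overlapped both. Vehicle was lower than naïve by 36.01% (log2 fold change -0.64, SE 0.15, adjusted p = 0.0286). TD139 was 1.31 times vehicle, which did not pass the test (log2 fold change 0.38, SE 0.15, adjusted p = 0.0613).

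Rom1 (chromosome 19, 8927391 to 8929356, minus strand, 3 exons), the partner tetraspanin that assembles with peripherin-2, is the shortest transcript of the set at 1.517 kb. It measured 4694, 3823 and 3528 CPM in naïve, 2558, 3172 and 2350 CPM in vehicle, and 2570, 3013 and 2888 CPM in TD139 mice. Both light-exposed groups lay below all naïve mice and overlapped each other. Rom1 fell with vehicle by 32.9% (log2 fold change -0.58, SE 0.14, adjusted p = 0.0340), and TD139 was 1.05 times vehicle (adjusted p = 0.724). TD139 was 29.7% below naïve, just outside the threshold (log2 fold change -0.51, SE 0.14, adjusted p = 0.0543).

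The balance of the rim tetraspanins was compared directly. The Prph2 to Rom1 ratio, per kilobase, was 0.982, 1.09 and 1.07 in naïve mice, 1.03, 1.01 and 0.928 in vehicle mice, and 1.19, 1.28 and 1.24 in TD139 mice. Every TD139 mouse was above every other mouse, with an exact two-sided permutation p = 0.1 against either group, the smallest that 3 against 3 mice allow. Vehicle and naïve overlapped (exact permutation p = 0.3). Prph2 has the longer transcript (2.665 kb), and after a correction for length and GC content, described below, Prph2 (log2 fold change 0.65) and Rom1 (0.63) differed between TD139 and vehicle by nearly the same amount.

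Abca4 (chromosome 3, 122044443 to 122180123, plus strand, 50 exons) encodes the transporter in disc rims that flips retinal-lipid adducts out of the disc interior. Its level was 1566, 1402 and 1293 CPM in naïve, 959, 1064 and 708 CPM in vehicle, and 1229, 1665 and 1578 CPM in TD139 mice. Every vehicle mouse was below every mouse of the other groups, which overlapped. It fell by 35.9% with vehicle (log2 fold change -0.64, SE 0.16, adjusted p = 0.0377) and was 1.64 times vehicle with TD139 (log2 fold change 0.71, SE 0.16, adjusted p = 0.0100), a call lost when length and GC content were corrected for (adjusted p = 0.0913).

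Prom1 (chromosome 5, 43993620 to 44102032, minus strand) encodes prominin-1, a pentaspan protein of the evaginating membrane. It measured 893, 942 and 975 CPM in naïve mice, 623, 789 and 545 CPM in vehicle mice and 733, 934 and 920 CPM in TD139 mice. Vehicle mice were all below naïve mice, while TD139 mouse 1 lay below vehicle mouse 2. Prom1 passed the test narrowly in both comparisons, falling by 30.3% with vehicle (adjusted p = 0.0480) and reaching 1.32 times vehicle with TD139 (adjusted p = 0.0484, and 0.179 after the correction). The antisense gene Gm16401 overlaps 424 of its 7175 exonic bases, and whether the counting used strand is not given in the sources used here.

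Cdhr1 (chromosome 14, 37077857 to 37098347, minus strand) encodes the photoreceptor cadherin at the edge of growing discs. Its level was 1080, 1275 and 1258 CPM in naïve, 822, 983 and 657 CPM in vehicle, and 1065, 1483 and 1254 CPM in TD139 mice. The vehicle mice were again the 3 lowest. The difference from naïve narrowly missed the threshold (log2 fold change -0.55, SE 0.16, adjusted p = 0.0563), whereas TD139 was 1.54 times vehicle and passed (log2 fold change 0.63, SE 0.16, adjusted p = 0.0144).

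The axoneme genes had the largest fold changes of the 10 in both comparisons with vehicle. Rp1 (chromosome 1, 3999557 to 4409241, minus strand) encodes a doublecortin-domain protein that binds axonemal microtubules and is needed for stacking discs. It measured 870, 1159 and 1376 CPM in naïve mice, 711, 791 and 455 CPM in vehicle mice, and 1075, 2211 and 1735 CPM in TD139 mice. All vehicle mice were below all others, but the naïve and TD139 groups were widely spread. The vehicle to naïve difference did not pass the test (log2 fold change -0.80, SE 0.30, adjusted p = 0.121). TD139 was 2.57 times vehicle (log2 fold change 1.36, SE 0.30, adjusted p = 0.0116).

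Rp1l1 (chromosome 14, 63992506 to 64035025, plus strand), the related gene whose protein works with RP1, measured 530, 669 and 816 CPM in naïve, 399, 428 and 291 CPM in vehicle, and 577, 930 and 997 CPM in TD139 mice. The order of the groups was that of Rp1, with vehicle below all other mice. Rp1l1 was 44.5% lower with vehicle, the largest reduction of the 10, and narrowly missed the threshold (log2 fold change -0.85, SE 0.23, adjusted p = 0.0531). With TD139 it was 2.24 times vehicle (log2 fold change 1.16, SE 0.23, adjusted p = 0.00771). Between Rp1 and Rp1l1 the balance was measured by the per-kilobase ratio, which was 1.64 ± 0.04 in naïve, 1.68 ± 0.15 in vehicle and 1.94 ± 0.33 (SD, n = 3) in TD139 mice, and vehicle mice overlapped with both other groups (exact permutation p = 0.7 against naïve and 0.4 against TD139). All TD139 ratios were above all naïve ratios (exact permutation p = 0.1). The GC content of these transcripts is 39.6% for Rp1 and 55.2% for Rp1l1, and in the fit corrected for length and GC content the order turned, with Rp1 at -0.02 and Rp1l1 at 0.12 for TD139 against naïve (log2 fold changes).

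Tulp1 (chromosome 17, 28351515 to 28365222, minus strand) encodes a tubby-like protein needed to carry proteins to the outer segment. It measured 2674, 2220 and 1875 CPM in naïve, 1535, 1767 and 1191 CPM in vehicle, and 1582, 1838 and 1764 CPM in TD139 mice. Both light-exposed groups lay below naïve. Tulp1 fell by 33.6% with vehicle (log2 fold change -0.59, SE 0.16, adjusted p = 0.0465), and with TD139 it was 1.15 times vehicle (adjusted p = 0.330).

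Fscn2 (chromosome 11, 120361534 to 120368168, plus strand) encodes retinal fascin, an actin-bundling protein of photoreceptors. Its level was 238, 165 and 152 CPM in naïve, 140.0, 152 and 126 CPM in vehicle, and 137, 154 and 160 CPM in TD139 mice. Naïve mouse 1 stood above all the rest, and the lowest naïve mouse differed from the highest vehicle mouse by less than 1 CPM. Neither the difference of vehicle from naïve (log2 fold change -0.41, SE 0.15, adjusted p = 0.115) nor that of TD139 from vehicle (0.11, SE 0.15, adjusted p = 0.605) passed the test.

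Impg2 (chromosome 16, 56204313 to 56273756, plus strand) encodes a proteoglycan of the matrix around the outer segments. It measured 194, 228 and 271 CPM in naïve mice, 167, 196 and 146 CPM in vehicle mice, and 210, 399 and 343 CPM in TD139 mice. It was the only one of the 10 in which naïve and vehicle mice overlapped, and the difference did not pass (log2 fold change -0.45, SE 0.22, adjusted p = 0.223). With TD139 it was 1.87 times vehicle, with all mice apart (log2 fold change 0.90, SE 0.22, adjusted p = 0.0148, and 0.0936 after the correction).

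**Figure D2:**
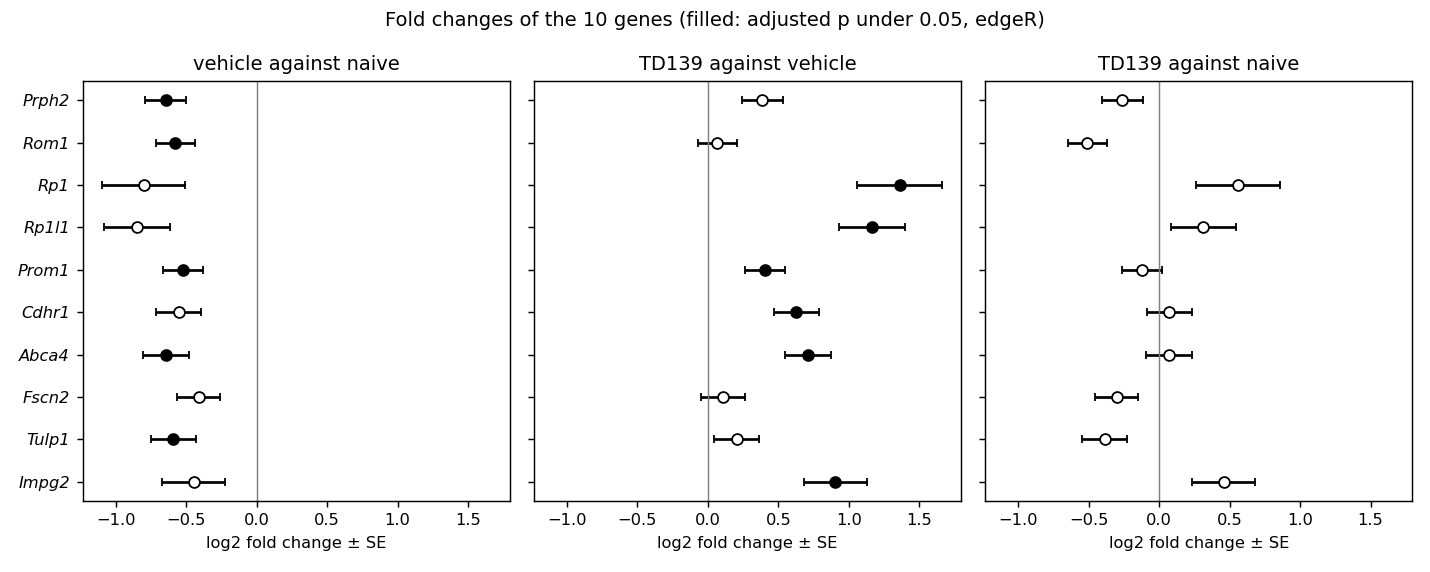
Log2 fold change ± SE (horizontal axis) of each gene in the 3 comparisons, filled where the edgeR adjusted p was under 0.05. All 10 genes lie left of 0 for vehicle against naïve and right of 0 for TD139 against vehicle, and against naïve they split 5 and 5.

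Over the set, 5 of 10 genes fell from naïve to vehicle (Prph2, Rom1, Prom1, Abca4 and Tulp1), where 2.89% of the 15196 tested genes did, and in 9 of 10 all vehicle mice were below all naïve mice, where 16.6% of tested genes were. The median log2 fold change was -0.58, against -0.00 for all tested genes. None of the 10 reached a log2 fold change of -2, which 0.00658% of genes did with an adjusted p under 0.05. The count of 5 depended on single mice. It was 0 without any one naïve mouse, without vehicle mouse 1 or without vehicle mouse 3, but in these fits the share of all genes called lower also dropped, to between 0% and 0.564%. It was 3 without TD139 mouse 2 (2.21% of all genes), 1 without TD139 mouse 3 (1.81%), 6 without vehicle mouse 2 (2.3%) and 7 without TD139 mouse 1 (5.64%). Their median on the log2 scale lay between -0.46 (without vehicle mouse 3) and -0.72 (without vehicle mouse 2) when single naïve or vehicle mice were left out.

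From vehicle to TD139, 6 of 10 genes rose (Abca4, Prom1, Cdhr1, Rp1, Rp1l1 and Impg2) and none fell, where 17.2% of tested genes rose and 16.2% fell. None reached a log2 fold change of 2, which 0.125% of genes did with an adjusted p under 0.05. All TD139 mice were above all vehicle mice in 5 of 10, where they were in 26% of genes. The median log2 fold change was 0.51, against -0.02 for all tested genes. The count was 3 without vehicle mouse 3 (7.9% of all genes called higher), 2 without TD139 mouse 2 (5.61%), 3 without TD139 mouse 3 (6.8%), 7 without vehicle mouse 2 (12.5%) and 7 without TD139 mouse 1 (19.5%). The median of the 10 genes in these fits was 0.39, 0.42, 0.50, 0.67 and 0.63. Rp1 and Rp1l1 kept an adjusted p under 0.05 in all 9 fits that each left out 1 mouse.

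Between TD139 and naïve mice, 0 of 10 genes passed edgeR's test, where 2.38% of tested genes were lower and 2.72% higher. At an unadjusted p under 0.05, 2 of 10 were lower, Rom1 and Tulp1, where 14.1% of tested genes were lower. These were also the 2 genes with every TD139 mouse below every naïve mouse, where 16.8% of tested genes were. DESeq2 called 1 (Rom1, adjusted p = 0.00868), where it called 7.8% of genes lower, and limma voom 0. Each pair of the 3 comparisons shares a group of mice, so the lower values in vehicle and the higher values of TD139 over vehicle both rest on the same 3 vehicle mice and are not independent of each other.

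Within the light-exposed groups, mice ranked alike across the genes. Vehicle mouse 2 was the highest and vehicle mouse 3 the lowest of their group for all 10, and TD139 mouse 1 was the lowest of its group for all 10. The summed level of the 10 genes was 12530, 14998 and 10300 CPM in vehicle mice, 14565, 19380 and 17912 CPM in TD139 mice and 20836, 19172 and 18199 CPM in naïve mice. The 14 microglia and macrophage markers summed to 458, 333 and 623 CPM in vehicle, 205, 66.4 and 57.4 CPM in TD139 and 79.2 to 83.6 CPM in naïve mice, so in each light-exposed group the mouse with the least outer segment RNA had the most microglial RNA. Of these markers, 8 of 14 rose with vehicle (4.91% of tested genes) and 11 of 14 fell with TD139 against vehicle (16.2%). Their part in the result was not tested.

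**Figure D3:**
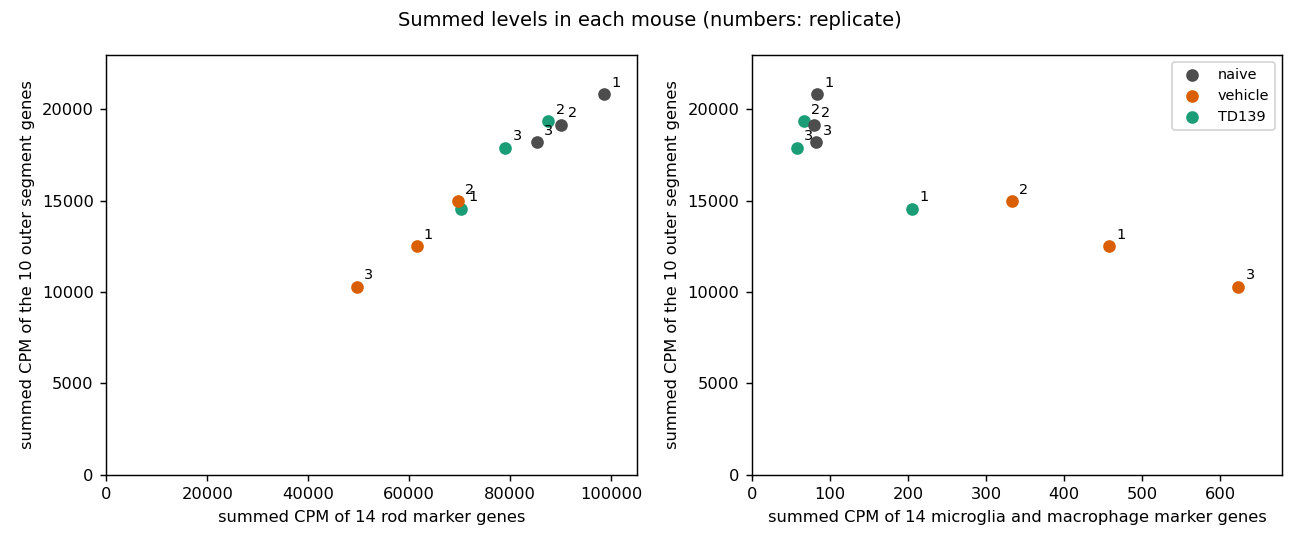
Summed CPM of the 10 outer segment genes (vertical axes) against summed CPM of 14 rod markers (left) and of 14 microglia and macrophage markers (right), with 1 numbered point per mouse. The outer segment sum runs from 10300 CPM in the mouse with the lowest rod sum to 20836 CPM in the mouse with the highest, and TD139 mouse 1 lies closest of its group to the vehicle mice.

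The outer segment genes were then set against rod markers, a list of 14 phototransduction and rod genes with no member in it. Of the rod markers, 9 of 14 fell with vehicle (median log2 fold change -0.62), where 2.89% of tested genes did. With TD139 against vehicle 7 of 14 rose (median 0.41), where 17.2% of tested genes did. The 10 genes made up 1.89 ± 0.12% of all counts in naïve, 1.31 ± 0.21% in vehicle and 1.69 ± 0.17% in TD139 mice (SD, n = 3). Per 100 rod marker counts, however, they gave 21.3 ± 0.1 in naïve, 20.9 ± 0.6 in vehicle and 21.9 ± 1.0 in TD139 mice, with exact permutation p of 0.3 to 0.4 between groups. This sum is led by Prph2, Rom1 and Tulp1, with mean naïve counts of 195327, 106675 and 59916, beside 17942 for Rp1l1. It does not describe each gene. When all libraries were scaled to rod marker counts, 0 of 10 genes were called between vehicle and naïve, and the median of the 10 was 0.02. Of all genes, 0.0592% were called lower and 59.9% higher in that fit. Between TD139 and vehicle 2 of 10 were called higher, Rp1 (log2 fold change 0.96) and Rp1l1 (0.77), where 2.28% of all genes were. Relative to rod markers, Rom1, Fscn2 and Tulp1 were lower with TD139 than with vehicle in the mean, with log2 fold changes of -0.32, -0.29 and -0.18, without passing the test.

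Markers of cones and other cells were counted in the same way. Of all tested genes, 2.89% were called lower and 4.91% higher with vehicle against naïve. For TD139 against vehicle the shares were 16.2% lower and 17.2% higher. Of 10 cone markers, 0 were called by edgeR between vehicle and naïve, though 7 were lower in the mean (median log2 fold change -0.20), and with TD139 against vehicle 6 were higher in the mean, 1 was called lower and 1 higher. Whether cone markers differed from the 10 genes was not tested. Of 9 Müller glia markers, 5 rose with vehicle and 3 fell with TD139. Of 7 tested pigment epithelium markers, 0 were called with vehicle and 2 fell with TD139, and their sum was 124 to 275 CPM in naïve, 229 to 490 CPM in vehicle and 135 to 199 CPM in TD139 mice. Lens markers gave no call in any comparison.

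The size of the TD139 difference among the 10 genes ran with transcript length. Its Spearman correlation with length was 0.89 over the 10 genes and 0.50 over 15060 genes with a known length, given as a description, since all points share the same libraries. The 4 transcripts of 6.684 kb or more (Rp1, Rp1l1, Abca4, Impg2) had a median log2 fold change of 1.03, and the 3 of 2.091 kb or less (Rom1, Fscn2, Tulp1) 0.11. These groups were formed after the values were seen. Genes of similar length (within 20%) had a median of 0.36 around Rp1 and -0.31 around Rom1, so each of the 10 lay above its length class.

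The ratio of counts on the 4 long to the 3 short transcripts was 0.415, 0.557 and 0.676 in naïve mice, 0.528, 0.487 and 0.436 in vehicle mice, and 0.721, 1.04 and 0.967 in TD139 mice. Every TD139 mouse was above every other mouse, and the naïve mice alone spread by more than the vehicle mice. Naïve mouse 1 had the lowest level of Rp1, Rp1l1, Prom1, Cdhr1 and Impg2 and the highest of Prph2, Rom1, Abca4, Fscn2 and Tulp1 within its group. The share of reads labelled as having no feature was 21.3 to 22.8% in TD139 mice and 16.5 to 19.9% in the others. The part of RNA quality or library preparation in this trend was not tested.

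**Figure D4:**
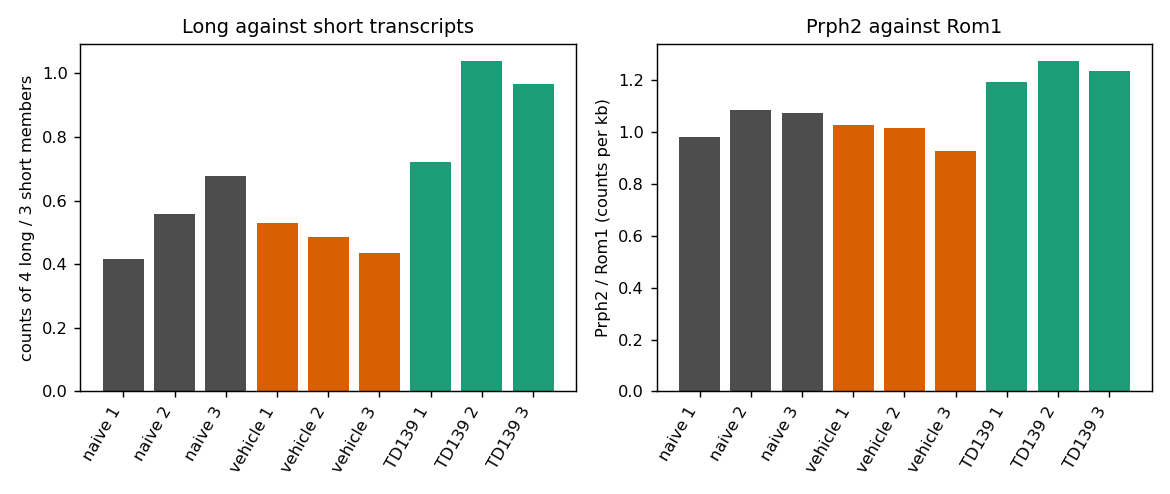
Left, counts on the 4 long transcripts divided by counts on the 3 short ones in each mouse; right, the Prph2 to Rom1 ratio of counts per kilobase. Bars are single mice and start at 0, and the 3 TD139 mice are the highest in both plots.

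A fit with each mouse corrected for transcript length and GC content changed which genes were called. Between TD139 and vehicle, 7 of 10 rose (background 13.8%): Rp1l1 (log2 fold change 1.02), Rp1 (0.78), Tulp1 (0.66), Prph2 (0.65), Fscn2 (0.64), Rom1 (0.63) and Cdhr1 (0.57), with adjusted p from 0.0131 to 0.0290. Only 3 of the 7 were among the 6 called without the correction (Rp1, Rp1l1 and Cdhr1). Impg2 (0.42, adjusted p = 0.0936), Abca4 (0.47, adjusted p = 0.0913) and Prom1 (0.25, adjusted p = 0.179) were no longer called. The correlation with length among the 10 became -0.18 and the median 0.63, beside 0.57 for rod markers. Between vehicle and naïve, 9 of 10 fell in the corrected fit (all but Impg2, background 13.6%) with a median of -0.73. The direction of both comparisons was thus the same for all 10 genes with and without the correction, while the order of the genes was not. Between TD139 and naïve, 0 of 10 and 0% of all genes were called by edgeR in this fit, and the median of the 10 was -0.07.

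**Figure D5:**
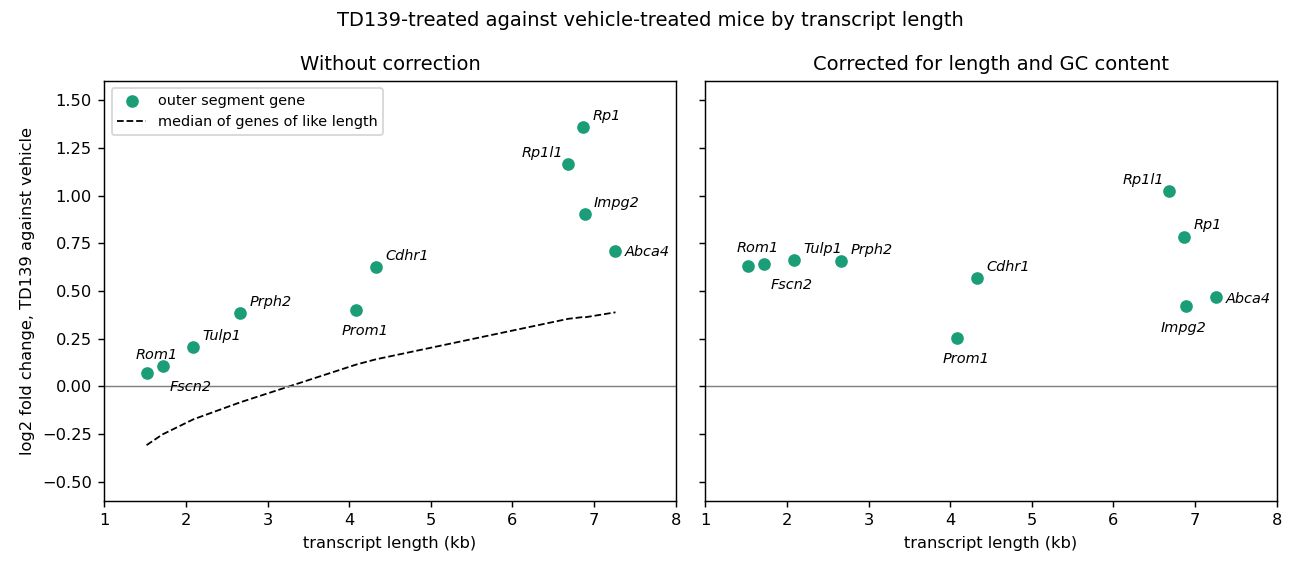
Log2 fold change of TD139 against vehicle (vertical axis) by transcript length in kb (horizontal axis) for the 10 genes, without correction (left, dashed line for the median of all genes within 20% of each length) and corrected for length and GC content (right). The slope from Rom1 at 0.07 to Rp1 at 1.36 on the left is replaced on the right by values between 0.25 and 1.02.

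Other photoreceptor genes, most of them of the outer segment and its cilium, formed a list of 22, of which 21 were in the tables and tested. From naïve to vehicle 7 of 21 fell and 1 rose (2.89% of tested genes fell and 4.91% rose), with a median of -0.48. The 7 were BC027072 (Pcare, an actin regulator of disc formation), Mak, Fam161a, Rpgrip1, Unc119, Slc24a1 and Mpp4. The 1 that rose was Myo7a (log2 fold change 2.36, SE 0.43, adjusted p = 0.0185), a myosin that pigment epithelium also uses, at a mean of only 0.677 CPM in naïve and 3.48 CPM in vehicle mice. From vehicle to TD139, 15 of 21 rose and 0 fell (17.2% of tested genes rose and 16.2% fell), with a median of 0.64.

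The genes with the most counts in this list were Unc119 and Slc24a1. Unc119, whose protein carries lipid-modified transducin, was at 3084 ± 417 CPM in naïve, 2151 ± 304 CPM in vehicle and 2224 ± 125 CPM in TD139 mice, falling with vehicle (log2 fold change -0.52, adjusted p = 0.0363) and not passing with TD139 (0.05, adjusted p = 0.788). Slc24a1, the rod sodium, calcium and potassium exchanger, was at 1336 ± 120, 861 ± 182 and 1558 ± 247 CPM, falling with vehicle (-0.63, adjusted p = 0.0423) and rising with TD139 (0.85, adjusted p = 0.00650). Their transcripts measure 1.371 and 5.213 kb, and corrected for length and GC content the TD139 to vehicle values were 0.65 for Unc119 (adjusted p = 0.0109) and 0.69 for Slc24a1 (adjusted p = 0.0135). Against naïve, the only call among the 21 with TD139 was Crb1, where 2.72% of tested genes were called higher. Crb1, an apical polarity protein near the outer limiting membrane, was higher (0.58, adjusted p = 0.0467). Its transcript measures 6.135 kb, and the call was lost in the corrected fit (0.23, adjusted p = 0.297). In the fit corrected for length and GC content, 13 of 20 fell and 1 rose with vehicle (13.6% and 6.34% of all genes). With TD139 against vehicle 14 of 20 rose and 1 fell in that fit (13.8% and 7.67% of all genes). The gene that rose and then fell was Myo7a (2.28, adjusted p = 0.0109, and -1.22, adjusted p = 0.0480).

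Genes related by sequence but mostly used outside the outer segment were counted in the same way. Of 17 paralogs counted, 13 were tested, with a median of 0.13 for vehicle against naïve and 0.07 for TD139 against vehicle. With vehicle 1 of 13 fell and 0 rose, where 2.89% and 4.91% of tested genes did. From vehicle to TD139, 2 of 13 fell and 2 rose, where 16.2% and 17.2% of tested genes did. The TD139 counts were thus near the share of all genes. Tub, the tubby gene related to Tulp1 and the paralog with the most counts, fell with vehicle (log2 fold change -0.74, adjusted p = 0.0235) and rose with TD139 (0.88, adjusted p = 0.00568). Tulp4 rose with TD139 (0.77, adjusted p = 0.00698), and Fscn1 (-0.43, adjusted p = 0.0119) and Tulp3 (-0.70, adjusted p = 0.0358) fell. Abca2, the second by counts, had log2 fold changes of 0.02 and 0.15 in these comparisons (adjusted p = 0.891 and 0.258). Corrected for length and GC content, Abca1 was called higher with vehicle (0.83, adjusted p = 0.0408) and Tub lower (-0.79, adjusted p = 0.0102). In that fit the median for TD139 against vehicle turned to -0.17. Dclk2 was called lower (-0.41, adjusted p = 0.0494) and Tub and Tulp4 higher (0.71 and 0.32, adjusted p = 0.0104 and 0.0297). Of all genes in that fit, 6.34% rose and 13.6% fell with vehicle, and 13.8% rose and 7.67% fell with TD139 against vehicle. No paralog was called between TD139 and naïve mice by edgeR.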

How the data were processed

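Poly(A) RNA of whole retinas was sequenced in single reads on 2 flow cells for 9 mice. The authors deposited a table of whole-number counts of reads per gene for every run of a mouse, made with BaseSpace RNA Express and without scaling, and the submitters' processing notes name the build mm10. Reads labelled as having no feature (16.5 to 22.8%) and ambiguous reads were left out. Counts of both runs were summed per mouse, since the labels name the same mouse for both. The runs of a mouse differed by more than counting error (chi-square per degree of freedom over genes 1.60 to 1.76, where counting error alone gives about 1).

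Tests used edgeR 4.0.16 in R 4.3.3 (filterByExpr, TMM, robust quasi-likelihood F test, 9 mice in 1 fit), with Benjamini-Hochberg adjustment over 15196 genes and calls at an adjusted p under 0.05. The SE is the size of the log2 fold change divided by the square root of F. Ratios were tested over mice with exact two-sided permutation tests. Positions and lengths came from GENCODE M21 (GRCm38), which placed 98.39% of symbols. Alternatives were RLE factors, library size alone, scaling to rod markers, DESeq2 1.42.0, limma 3.58.1 voom, no filter, the replicate number as a block, single runs, only the groups compared, each mouse left out, and a spline of 4 degrees of freedom on transcript length and GC content per mouse as an offset. Steps were tested on simulated data.

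The members and lists were chosen with earlier results of these data known. Named are all members, and from the lists of other outer segment genes and paralogs the 2 genes with the most counts. From these lists every gene called in a comparison with at most 5 calls is also named, in the reported fit and the fit corrected for length and GC content. The 7 other outer segment genes that fell with vehicle were named after their values were seen. The labels give no litter or cage, and p-values measure the spread between these mice. Some genes are not reported here.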

Additional observations from a re-analysis of the deposited data

How the results depend on the processing

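Of 330 log2 fold changes of the 10 genes under the 11 alternatives other than leaving out single mice, 278 kept their direction and their side of the threshold. Members lower with vehicle are given with the share of all genes called lower in the same fit. They numbered 5 in the reported fit (2.89%), 3 with library size alone (1.72%), 0 scaled to rod markers (0.0592%), 8 with DESeq2 (7%) and 9 corrected for length and GC content (13.6%). Leaving out each mouse gave 0 to 7 (0% to 5.64% of all genes). Members higher with TD139 than vehicle numbered 6 in the reported fit (17.2% of all genes) and 2 scaled to rod markers (2.28%). With a mouse left out they numbered 2 to 7 (5.61% to 19.5%). Against naïve, the reported fit had 0 members lower (2.38% of all genes). In 3 alternatives 1 member (Rom1) was lower: library size alone (1.26%), DESeq2 (7.8%) and run 2 alone (2.68%). Leaving out a mouse gave 0 to 1 lower (Rom1, without naïve mouse 3, 7.71% of all genes). It also gave 0 to 1 higher (Impg2, without TD139 mouse 1, 6.19% of all genes). The direction of Rom1 for TD139 against vehicle became -0.0163 with library size alone. Scaled to rod markers, the vehicle to naïve values of Rom1, Prom1, Cdhr1, Fscn2, Tulp1 and Impg2 became 0.0335, 0.0683, 0.0310, 0.21, 0.0113 and 0.14, the TD139 to vehicle values of Prph2, Rom1, Fscn2 and Tulp1 became -0.0016, -0.32, -0.29 and -0.18, and the TD139 to naïve value of Prom1 became 0.0817. This scaling moved the median of all genes to 0.62, -0.42 and 0.22. Corrected for length and GC content, the TD139 to naïve values of Rp1, Cdhr1, Abca4, Fscn2 and Impg2 became -0.0198, -0.0427, -0.24, 0.0417 and -0.0189. With a mouse left out, Rom1 ranged from -0.0204 to 0.20 for TD139 against vehicle, and Cdhr1 from -0.0542 to 0.19 and Abca4 from -0.0162 to 0.19 against naïve. The cause was not tested. Over all genes, calls between vehicle and naïve were 439 lower and 746 higher in the reported fit, 261 and 890 with library size alone, 1063 and 1355 with DESeq2, and 2052 and 955 corrected for length and GC content, and the share of calls that were higher went from 63.0% to 77.3%, 56.0% and 31.8%. For TD139 against vehicle that share went from 51.6% to 39.2% with library size alone and to 64.2% with the correction. For TD139 against naïve, 362 lower and 413 higher became 0 and 0 under the correction or the replicate block, 0 and 1 with only those groups fitted, and 1185 and 1447 with DESeq2. The replicate numbers did not pair the mice, since only 2 of 9 same-numbered pairs correlated above 0.1 and 2 of 9 mice correlated best with their own number. With the replicate block, 6 members were lower with vehicle (2.24% of all genes), 6 higher with TD139 than vehicle (16% of all genes), and 0 called against naïve. Depth limits none of these values, as the spread between mice exceeds counting error.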
